A study of Drosophila melanogaster with 3 samples.

Results

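Peaks of the tagged zinc finger protein az2 were examined at 32 genes of mesoderm and muscle, out of 13945 protein-coding genes in the Ensembl annotation of Drosophila melanogaster. The 32 genes were a fixed list of symbols. Of these, 14 were regulators (twi, sna, Mef2, tin, bap, how, htl, stumps, pyr, ths, lmd, nau, slou and mbc), and 18 were contractile and attachment genes (mys, if, Tm1, Tm2, Mhc, Mlc1, Mlc2, sls, bt, up, wupA, Act57B, Act87E, Act88F, Msp300, Mp20, Prm and Zasp52). The measurement was chromatin immunoprecipitation followed by sequencing (ChIP-seq) with an antibody against green fluorescent protein (GFP). Whole embryos of the az2-GFP strain, 0 to 16 hours old and with males and females pooled, formed 1 group of 3 biological replicates. They carried a stably expressed transgene that makes az2 with GFP at its C terminus. The line is a single transgenic line, and the labels give neither the promoter that drives the transgene nor the state of the native az2 gene. Because whole embryos were used, weak binding in many cells and strong binding in few cells cannot be told apart.

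The embryonic mesoderm of the fly is set up by the transcription factors Twist and Snail, and is then divided into heart, gut muscle and body wall muscle by further regulators such as Tinman and Bagpipe, while Mef2 drives muscle differentiation. A fibroblast growth factor (FGF) pathway, with the ligands Pyramus and Thisbe, the receptor Heartless and the adaptor Stumps, drives the spreading of mesoderm cells. Myoblasts later fuse into muscle fibres, assemble thick and thin filaments into sarcomeres, and attach to tendon cells through integrins.

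A total of 5786 peaks passed the authors' test of repeatability between replicates, the irreproducible discovery rate (IDR), and the relaxed lists behind them held 22372 to 30000 peaks per replicate and 27145 for the pooled reads. Each peak has a signal value given by the authors, which has no stated unit and ran from 133 to 4202 over the IDR peaks, with a median of 233. Rank 1 is the highest signal. The 3 replicate lists were called separately, so their signals are given side by side and only ranks were set against each other. A gene was counted as having a promoter peak when the summit of an IDR peak lay within 500 bp of any of its transcription start sites (TSSs). No test was run on the counts, since the genes were chosen with results of these data known. The main counts of members stand beside the share over all protein-coding genes.

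The 201 bp around the summits of 8 peaks on the members' own strand show the DNA under the binding described below. The tin, stumps, sls and Msp300 promoter windows belong to the highest promoter peaks that lay near no other gene's TSS, and the mbc window to the highest peak inside a member and beyond 500 bp of its TSSs. The nau, Act87E and second Msp300 windows are shown because they hold words searched for under all peaks. Capitals mark the Twist E-box CATATG, the Mef2 site, the GAGA site GAGAG, Motif 7 CATCNCTA, the TATA box TATAAA and the word TACACTG, each on either strand and joined where matches overlap. Coordinates are of the build dm6 and the letters are from the RefSeq assembly of that build.
tin promoter, chr3R:21378647-21378847, plus strand: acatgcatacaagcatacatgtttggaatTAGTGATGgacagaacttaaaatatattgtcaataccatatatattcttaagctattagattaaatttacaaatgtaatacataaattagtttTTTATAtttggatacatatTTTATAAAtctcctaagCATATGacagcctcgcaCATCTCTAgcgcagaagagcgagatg
stumps internal promoter, chr3R:14591153-14591353, plus strand: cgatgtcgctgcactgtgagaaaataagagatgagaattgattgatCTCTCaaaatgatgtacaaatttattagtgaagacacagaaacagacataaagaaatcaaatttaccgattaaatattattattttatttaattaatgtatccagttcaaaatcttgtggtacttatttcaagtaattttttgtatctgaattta
mbc intron 1, chr3R:23782818-23783018, plus strand: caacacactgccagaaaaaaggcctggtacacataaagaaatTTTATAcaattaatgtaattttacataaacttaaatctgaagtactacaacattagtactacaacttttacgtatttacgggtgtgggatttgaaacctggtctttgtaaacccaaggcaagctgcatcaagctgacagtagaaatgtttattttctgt
nau intron 3, chr3R:23713974-23714174, minus strand: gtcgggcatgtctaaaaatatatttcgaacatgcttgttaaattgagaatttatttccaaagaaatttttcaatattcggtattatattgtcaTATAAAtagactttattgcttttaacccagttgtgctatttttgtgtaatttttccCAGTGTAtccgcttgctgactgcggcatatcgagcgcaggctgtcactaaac
Msp300 internal promoter, chr2L:5108080-5108280, plus strand: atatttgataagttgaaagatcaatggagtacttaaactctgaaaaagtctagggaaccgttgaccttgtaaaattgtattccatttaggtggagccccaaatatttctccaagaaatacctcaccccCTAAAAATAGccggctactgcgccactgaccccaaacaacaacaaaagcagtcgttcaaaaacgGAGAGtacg
Msp300 intron, chr2L:5145658-5145858, plus strand: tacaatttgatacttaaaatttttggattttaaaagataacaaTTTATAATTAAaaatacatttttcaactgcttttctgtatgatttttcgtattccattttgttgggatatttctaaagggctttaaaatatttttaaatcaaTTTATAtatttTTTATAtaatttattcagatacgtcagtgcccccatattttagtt
sls promoter, chr3L:2115782-2115982, minus strand: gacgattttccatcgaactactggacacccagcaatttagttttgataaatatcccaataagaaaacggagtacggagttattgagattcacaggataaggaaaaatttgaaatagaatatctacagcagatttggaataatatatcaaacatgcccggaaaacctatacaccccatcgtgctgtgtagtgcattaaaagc
Act87E promoter, chr3R:13425520-13425720, plus strand: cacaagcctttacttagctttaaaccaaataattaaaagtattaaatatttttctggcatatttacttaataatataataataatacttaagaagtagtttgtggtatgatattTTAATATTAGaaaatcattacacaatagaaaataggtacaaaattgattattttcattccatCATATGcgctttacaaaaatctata
The sls window held none of these matches and the mbc window a TATA box match alone. The letters of the nau window include the reverse complement of TACACTG, and both Msp300 windows hold a match to the Mef2 site.

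Promoter peaks were found at 11 of the 32 members (34.4%), against 22.6% of all protein-coding genes. The 5 regulators among them were tin, how, htl, stumps and mbc, which is 35.7% of regulators. The 6 contractile and attachment genes were mys, if, Tm1, sls, Act87E and Msp300, which is 33.3% of that class. These shares lay close together with the 500 bp window and the attachment genes included. Of the contractile genes alone, without mys, if, Msp300 and Zasp52, 3 of 14 had a promoter peak. Within 250 bp of a TSS, 3 of 14 regulators and 2 of 18 contractile and attachment genes did, with no share over all genes for that window. Several members have many TSSs, and each TSS adds a place where a summit can be counted. With 2 or more TSSs, 6 of 17 members (35.3%) had a promoter peak, against 36.1% of all such genes. With 1 TSS, 5 of 15 members (33.3%) did, against 17.8% of all such genes. Counted at the 5'-most TSS alone, 6 of 32 members had a promoter peak, 3 in each class, against 20.3% of all protein-coding genes. Without replicate 3, 3 regulators and 5 contractile and attachment genes had a promoter peak, with no share over all genes for that setting.

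The highest promoter peak of a gene had a median signal of 517 over the 5 regulators, 338 over the 6 contractile and attachment genes and 418 over the 11 members together, against 280 over all 3157 genes with a promoter peak. Of the 11 members, 7 lay above that last median. The values ran from 148 at how to 853 at Msp300, well below the highest IDR signal of 4202. The regulators' median of 517 was the value at mbc, whose summit lay 43 bp from the TSS of another gene. The medians were not split by number of TSSs.

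**Figure D1:**
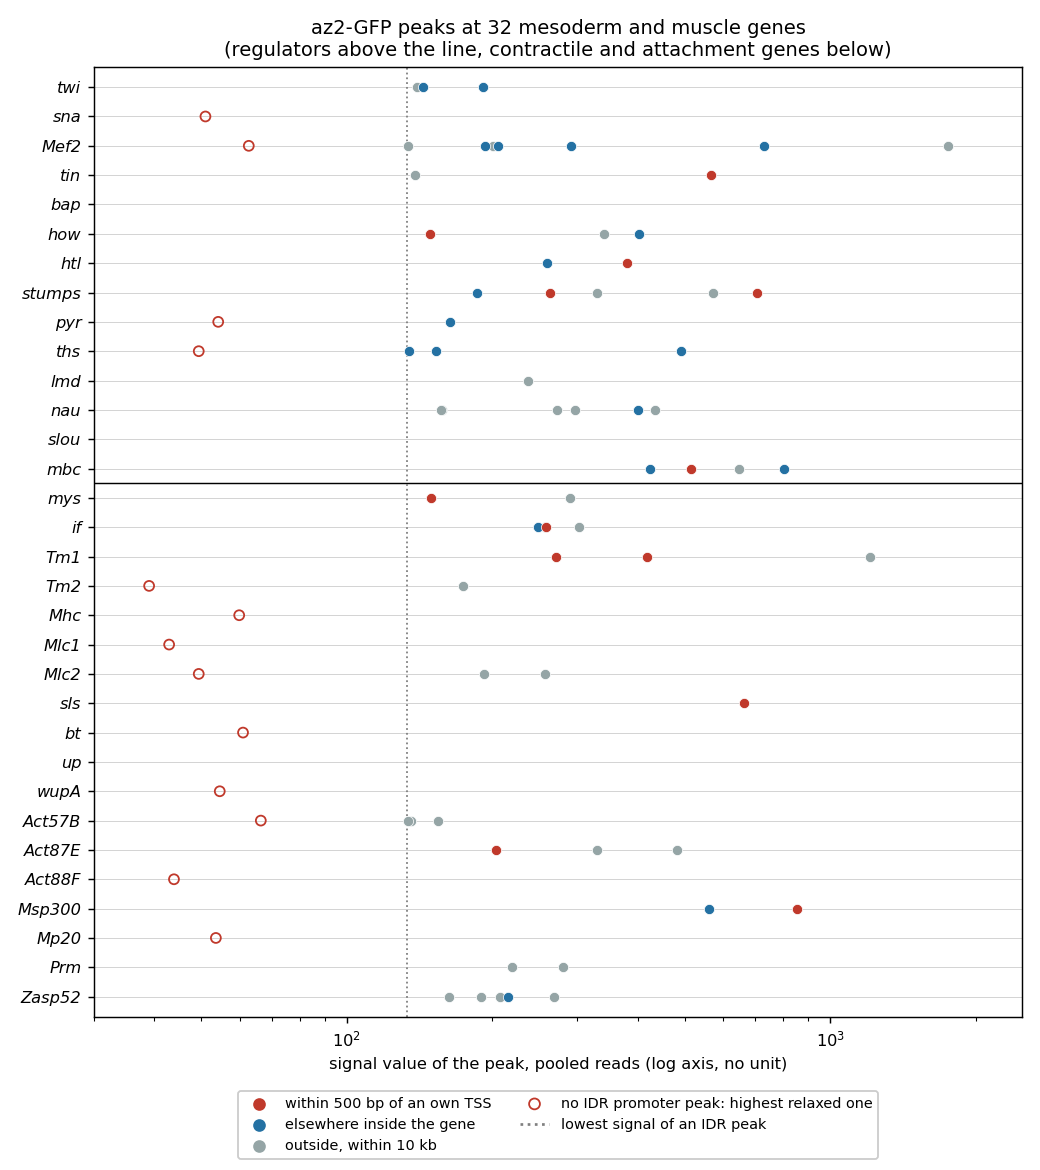
Signal of each IDR peak (horizontal log axis, no unit) at each of the 32 members (rows, regulators above the line). Filled points are IDR peaks coloured by place, hollow points are the highest relaxed pooled promoter peak of members without an IDR promoter peak, and the dotted line at 133 is the lowest IDR signal. The members without a filled point are sna, bap, slou, Mhc, Mlc1, bt, up, wupA, Act88F and Mp20.

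Peaks inside the gene were counted more often at regulators than at contractile and attachment genes, a difference that was not tested. A summit lay between the outer ends of the gene in 9 of 14 regulators (64.3%), namely twi, Mef2, how, htl, stumps, pyr, ths, nau and mbc. It did in 4 of 18 contractile and attachment genes (22.2%), namely if, Tm1, Msp300 and Zasp52. Together this was 13 of 32 members (40.6%), against 13.0% of all protein-coding genes. Members are long, with a median span of 11.3 kb for regulators and 10.2 kb for contractile and attachment genes, against 2.17 kb for all protein-coding genes, so the counts were also read within classes of span.

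In genes over 30 kb, 5 of 5 regulators and 4 of 6 contractile and attachment genes had a peak inside, against 56.7% of all genes of that span. From 10 to 30 kb it was 2 of 2 regulators and 0 of 3 contractile and attachment genes, against 43.2%. From 2 to 10 kb it was 2 of 5 regulators and 0 of 9 contractile and attachment genes, against 13.0%. Under 2 kb it was 0 of 2 regulators, with no contractile or attachment gene that short, against 2.44%. Regulators stood above the share of all genes in each class over 2 kb, and contractile and attachment genes of 2 to 30 kb had no peak inside, on few genes in every class.

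**Figure D2:**
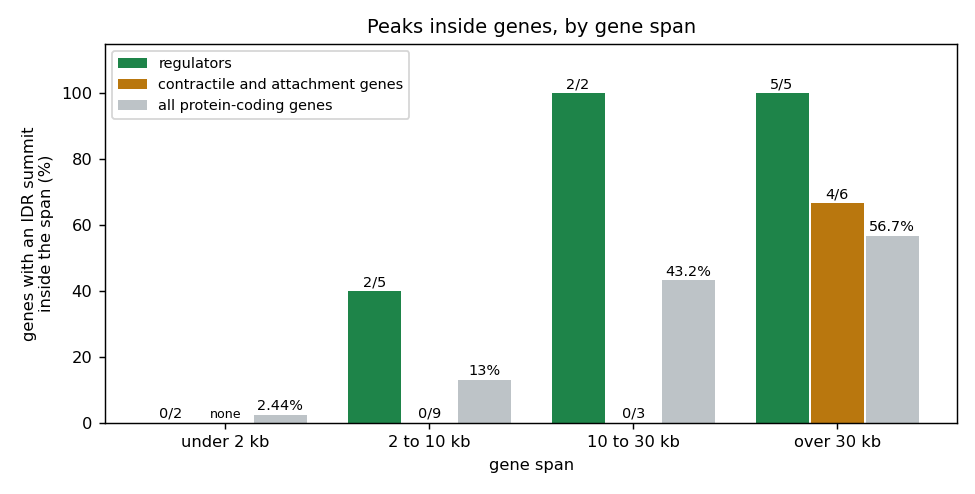
Percent of genes with an IDR summit inside the gene span (vertical axis) by class of span (horizontal axis) for regulators, contractile and attachment genes and all protein-coding genes. Labels give genes with a peak over genes in the class, and regulators over 30 kb stand at 5 of 5.

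Per length of gene, the regulators held 19 summits in 301.4 kb, or 0.630 per 10 kb of span, and the contractile and attachment genes held 7 in 434.5 kb, or 0.161 per 10 kb. The 32 members together held 0.353 per 10 kb, against 0.351 over all protein-coding genes. The members as a whole thus lay at the density of all genes, with the regulators above it and the contractile and attachment genes below it. Without the 4 attachment genes the contractile density was 0.0854 per 10 kb, from peaks inside Tm1 alone. Of the 26 summits inside members, 25 lay in introns and 1 in a 5' UTR, with no such split over all protein-coding genes beside it.

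Within the span or 10 kb to either side, 11 of 14 regulators (78.6%) and 11 of 18 contractile and attachment genes (61.1%) had a peak. Together this was 22 of 32 members (68.8%), against 67.8% of all protein-coding genes. At this distance the members lay at the background.

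**Figure D3:**
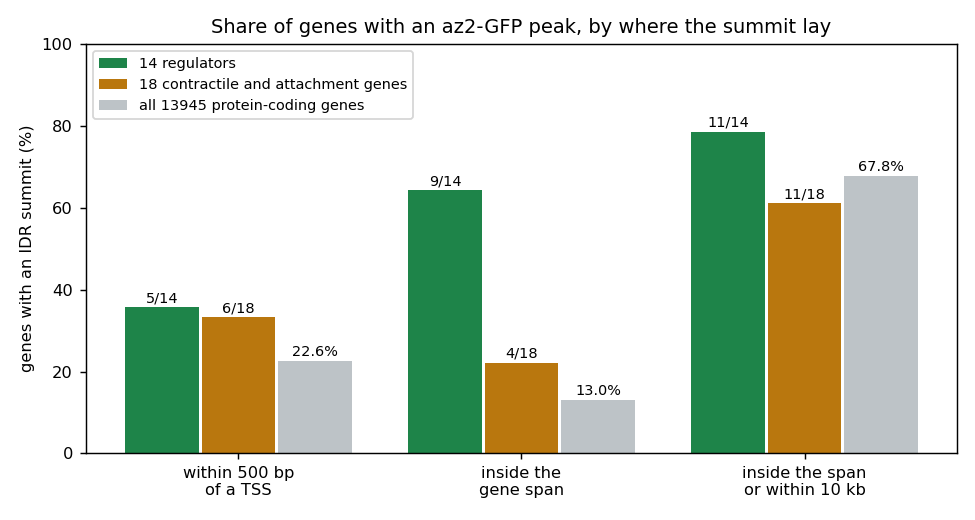
Percent of genes with an IDR summit (vertical axis) within 500 bp of a TSS, inside the gene span, and inside the span or within 10 kb. Bars are regulators, contractile and attachment genes and all protein-coding genes, and the bars of the 2 member classes differ most for peaks inside the span (9 of 14 and 4 of 18).

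The nearest IDR summit lay at a median of 1741 bp from a TSS for regulators and 3843 bp for contractile and attachment genes, against 5644 bp for all protein-coding genes. In all, 65 peaks lay at the members, 37 at regulators and 28 at contractile and attachment genes. Of the regulators' peaks, 6 were at promoters, 16 elsewhere inside the gene and 15 outside it. Of the peaks at contractile and attachment genes, 7 were at promoters, 3 elsewhere inside the gene and 18 outside it. Of the 13 promoter peaks, 12 had the summit upstream of the nearest own TSS and 1, at if, downstream. No such split over the promoter peaks of all genes was set beside this, so it cannot be called particular to the members.

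Among the transcription factors, tin (FBgn0004110, 3R:21378977-21381970), the homeobox regulator of heart and dorsal mesoderm, had a promoter peak with a signal of 566 and rank 645. The peak spanned 3R:21378642-21378898, with the summit 230 bp upstream of the only tin TSS. In replicates 1, 2 and 3 its signal was 174, 211 and 198, at ranks 369, 841 and 666. All 3 replicates placed it among their 1000 highest peaks, with replicate 1 ranking it highest. A further peak 5304 bp upstream of tin, with a signal of 138, lay 98 bp from the TSS of pre-mod(mdg4)-O. The neighbouring bap (FBgn0004862), a homeobox regulator of gut muscle, had no IDR peak within 10 kb, and its nearest summit was 10133 bp from its TSS.

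Mef2 (FBgn0011656, 2R:9913496-9958858), a MADS-box factor of muscle differentiation, had 4 peaks inside the gene and none at a promoter. The highest of these, with a signal of 729 and rank 398, lay in a 5' UTR, 1779 bp downstream of the nearest Mef2 TSS. Its signals in replicates 1, 2 and 3 were 134, 292 and 283, at ranks 643, 430 and 326, so the peak was high in each replicate. The others lay in introns, with signals of 292, 205 and 193, the last pair overlapping each other with summits 206 bp apart. The highest peak near any member, with a signal of 1757 and rank 42, lay 1072 bp upstream of Mef2 and 148 bp from the TSS of Pal1, with Pdrg1 also within 500 bp. It stood at ranks 41, 35 and 52 in replicates 1, 2 and 3. By position it was a promoter peak of the neighbours and not of Mef2.

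Neither of the founding mesoderm regulators sna and twi had a promoter peak, against 22.6% of all protein-coding genes with one. Inside the span or within 10 kb, 67.8% of all protein-coding genes had a peak. Within 10 kb of sna (FBgn0003448), the zinc finger repressor of the mesoderm, there was no IDR peak, and the nearest summit was 12959 bp from its TSS. For twi (FBgn0003900), the basic helix-loop-helix activator of the mesoderm, peaks of 191 and 144 lay inside the annotated span and a peak of 140 outside it. These inner peaks lay in an intron of the longest twi transcript, 16713 and 17929 bp from its start, and their nearest TSS was that of CG9896. The span of twi is 62952 bp with that transcript and 2218 bp with the others alone, and on the shorter span twi had no peak inside. Regulators with a peak inside then numbered 8, with a density of 0.706 per 10 kb.

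Of the later myogenic factors, nau and lmd had peaks away from their TSSs and slou had none within 10 kb. In nau (FBgn0002922), the fly MyoD gene, a peak with a signal of 400 and rank 1259 lay in intron 3 at 3R:23713859-23714288. Its signals in replicates 1, 2 and 3 were 81.7, 201 and 116. Its ranks were 1681, 918 and 1810, all well within the length of the IDR list. A further 5 peaks of 157 to 434 lay within 10 kb of nau, 3 of them within 500 bp of the TSSs of CG10301 or CG10365. For lmd (FBgn0039039), a zinc finger activator in fusion-competent myoblasts, the sole peak had a signal of 237 and lay 1990 bp upstream of the gene, with ranks of 2685, 2428 and 3976 in replicates 1, 2 and 3. At slou (FBgn0002941), a homeobox gene of muscle identity, no IDR summit lay nearer than 33679 bp, the largest distance of any member.

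The RNA-binding regulator how (FBgn0264491, 3R:22042191-22079321), needed for tendon and muscle maturation, had 3 peaks with signals of 341, 148 and 402. The lowest was the promoter peak, 356 bp upstream of the TSS, at ranks 5166, 8438 and 3941 in replicates 1, 2 and 3. The peak of 402 lay in intron 2, 7150 bp downstream, at ranks 1906, 970 and 1338. The peak of 341 lay 2553 bp upstream, with no other gene's TSS within 500 bp. At how the binding away from the promoter therefore had the higher signals, and replicate 2 ranked the promoter peak beyond the length of the IDR list.

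The FGF genes htl, stumps, pyr and ths each had a peak inside the gene. Among all genes of their spans the share was 13.0% from 2 to 10 kb (htl), 43.2% from 10 to 30 kb (pyr) and 56.7% over 30 kb (stumps and ths). In stumps (FBgn0020299, 3R:14577217-14608079), the adaptor of the FGF receptor, a peak of 706 and rank 417 spanned 3R:14591090-14591359 in intron 2, with the summit 367 bp upstream of an internal TSS. Its signals in replicates 1, 2 and 3 were 189, 281 and 238, at ranks 310, 467 and 456. All 3 replicates ranked it within the top 500. A smaller overlapping peak of 264 had its summit 206 bp further on. It had signals of 9.98, 73.3 and 90.8, and replicate 1 ranked it only at 25803, so that summit was weak in replicate 1. Outer peaks at stumps had signals of 186 inside the gene, 329 upstream and 571 downstream, the last 213 bp from the TSS of CG14853.

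The receptor gene htl (FBgn0010389, 3R:18045216-18052984) had a peak of 379 and rank 1393 in intron 1, 332 bp upstream of an internal TSS. Its signals in replicates 1, 2 and 3 were 98.6, 153 and 131, at ranks 1194, 1472 and 1486. The replicates placed it close together in rank. An overlapping peak of 260 lay 535 bp upstream of the same TSS. The replicate peaks with the nearest summits had ranks of 12403, 2415 and 2619. This second summit still lay in a peak among the 5786 highest of each of the 3 replicates, replicate 1 included.

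The ligand gene ths (FBgn0033652, 2R:11756817-11814424) had 3 intronic peaks with signals of 492, 153 and 134. The highest lay 1493 bp downstream of a TSS at ranks 1113, 824 and 820 in replicates 1, 2 and 3. Its paralogous ligand pyr (FBgn0033649, 2R:11712263-11726345) had a single intronic peak of 164, 4820 bp downstream of the TSS, at ranks 7842, 4767 and 4077. The ths peak was the higher in every replicate by rank.

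The fusion gene mbc (FBgn0015513, 3R:23781765-23801634) encodes an activator of Rac that myoblasts need in order to fuse. It held the highest peak that lay inside a member and beyond 500 bp of its TSSs, with a signal of 803 and rank 319, at 3R:23782750-23783066 in intron 1, 1153 bp downstream of the TSS. In replicates 1, 2 and 3 its signal was 157, 376 and 267, at ranks 467, 253 and 369. A further peak of 425 lay in the same intron, 2408 bp downstream, and a peak of 647 lay 8793 bp upstream, beside the TSS of tst. The promoter peak of mbc had a signal of 517 and signals of 118, 246 and 154 in the replicates. Its summit lay 187 bp upstream of mbc and 43 bp from the TSS of FBgn0039120, a nucleoporin gene that runs the other way. The intronic peak was thus higher than the promoter peak in each replicate, and had no TSS of another gene within 500 bp.

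**Figure D4:**
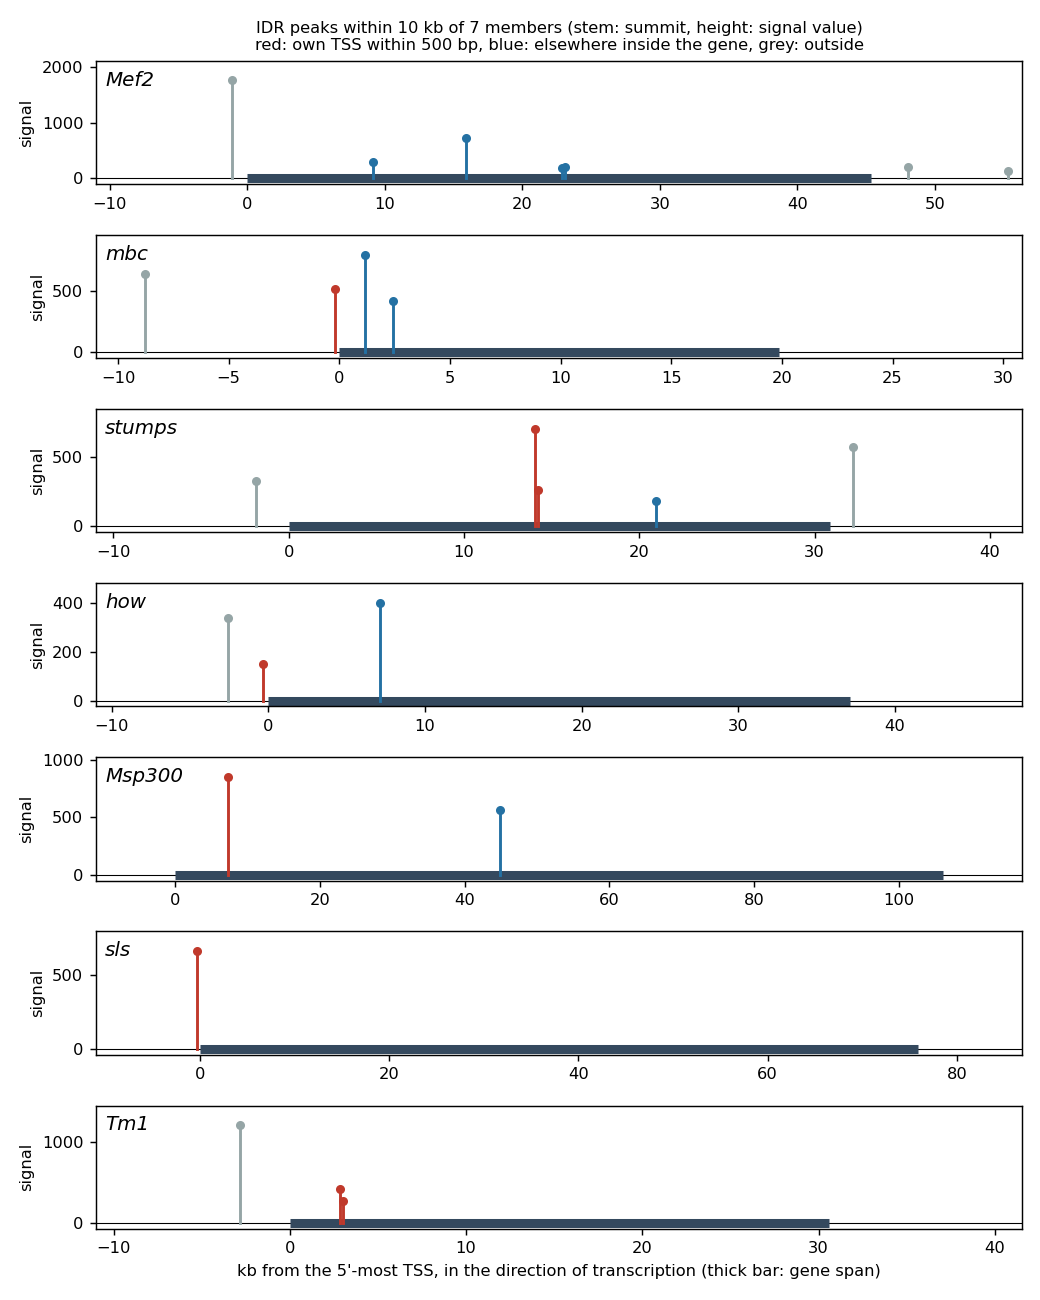
IDR peaks at Mef2, mbc, stumps, how, Msp300, sls and Tm1, with distance in kb from the 5'-most TSS in the direction of transcription (horizontal) and signal (vertical, a separate scale per gene). Stems stand at summits, the thick bar is the gene span, and colours mark peaks at an own TSS, elsewhere inside the gene, or outside. The highest peaks of Mef2 (1757) and Tm1 (1210) lie outside these genes.

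Of the 8 thin filament genes, Tm1 and Act87E had promoter peaks, against 22.6% of all protein-coding genes. Tm1 (FBgn0003721, 3R:15278220-15308779), a tropomyosin gene with 8 TSSs, had overlapping peaks of 418 and 270 in intron 1, with summits 320 and 118 bp upstream of an internal TSS. The higher one had signals of 94.1, 191 and 136 in replicates 1, 2 and 3, at ranks 1303, 999 and 1396, close together in rank. A peak of 1210 and rank 116 lay 2852 bp upstream of Tm1, but 127 bp from the TSS of Cp190, a gene of an insulator cofactor, with CG4338 also within 500 bp.

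Act87E (FBgn0000046, 3R:13425983-13428375), an actin gene, had a promoter peak of 203, 363 bp upstream of the nearest TSS. Its signals in replicates 1, 2 and 3 were 42.7, 56.8 and 101, at ranks 4320, 5351 and 2246. Peaks of 330 and 481 lay downstream of the gene, 2078 and 7284 bp from a TSS, with no other TSS within 500 bp. The promoter peak was thus the lowest of the 3.

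The other actin and tropomyosin genes had peaks at a distance or none. At Act57B (FBgn0000044), an actin gene of larval muscle, peaks of 136, 155 and 134 lay 5587, 4146 and 3944 bp upstream, near the lowest signal in the IDR list. At Tm2 (FBgn0004117), the neighbouring tropomyosin gene, a peak of 174 lay downstream, 98 bp from the TSS of CG6276. Within 10 kb of Act88F, the actin gene of flight muscle, of up and wupA, which encode troponin T and troponin I, and of Mp20, a calponin-like gene, there was no IDR peak. Their nearest summits were 11986, 14263, 21773 and 16160 bp from a TSS, in that order.

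None of the 4 thick filament genes had a peak at a promoter or inside the gene. Among all protein-coding genes 22.6% had a promoter peak. The share with a peak inside was 13.0% from 2 to 10 kb (Mlc1 and Mlc2) and 43.2% from 10 to 30 kb (Mhc and Prm). The myosin heavy chain gene Mhc (FBgn0264695, 2L:16766566-16788766) spans 22.2 kb, and its nearest summit was 23381 bp from a TSS. For the alkali light chain gene Mlc1 (FBgn0002772) the distance was 17155 bp. The regulatory light chain gene Mlc2 (FBgn0002773) had peaks of 258 and 193 downstream of the gene, the first of them 358 bp from the TSS of Rsod. The paramyosin gene Prm (FBgn0003149) had peaks of 220 and 280 at 3743 and 6167 bp upstream.

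The elastic filament genes differed from each other. At sls (FBgn0086906, 3L:2039681-2115611), which encodes titin-like proteins of the sarcomere, a peak of 664 and rank 475 lay at 3L:2115743-2116042, 271 bp upstream of the TSS. In replicates 1, 2 and 3 its signal was 146, 294 and 233, at ranks 548, 425 and 477, so the replicates ranked it alike. It was the only peak within 10 kb of the gene, and the 75.9 kb of the gene itself held none. At bt (FBgn0005666), the projectin gene on chromosome 4, no IDR peak lay inside its 52.1 kb or within 10 kb, and the nearest summit was 14449 bp from a TSS. Both genes are over 30 kb long, where 56.7% of all genes had a peak inside. At promoters the share of all protein-coding genes was 22.6%.

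Of the 4 attachment genes, mys, if and Msp300 had a promoter peak, and if, Msp300 and Zasp52 had a peak inside the gene. Those with a peak inside are over 30 kb long, where 56.7% of all genes had a peak inside. At promoters the share of all protein-coding genes was 22.6%. Msp300 (FBgn0261836, 2L:5100877-5207002) encodes a nesprin that links nuclei to the cytoskeleton. It had the highest promoter peak of all members, with a signal of 853 and rank 272, at 2L:5108029-5108347 in intron 2, 332 bp upstream of an internal TSS. In replicates 1, 2 and 3 its signal was 187, 361 and 293, at ranks 316, 284 and 295. A peak of 561 in a later intron, 628 bp upstream of another internal TSS, had signals of 132, 221 and 199 at ranks 670, 751 and 655. Both peaks were ranked closely alike by the replicates, and no other gene's TSS lay within 500 bp of either.

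The integrin genes had weaker peaks. At if (FBgn0001250, X:16752189-16783434), an integrin alpha subunit, a peak of 258 lay 296 bp downstream of a TSS and a peak of 249 lay in intron 2. Peaks of 302 and 257 lay beyond its 3' end, the higher beside the TSS of goe. The promoter peak had signals of 58.7, 109 and 91.4 in replicates 1, 2 and 3, at ranks 2765, 2444 and 2597. At mys (FBgn0004657, X:8061645-8070237), the integrin beta subunit, a peak of 149 lay 29 bp upstream of the TSS and 180 bp from that of fs(1)h, which runs the other way. Its signals were 49.7, 35.1 and 70.5, at ranks 3518, 9256 and 3707, so replicate 2 ranked it lowest. A peak of 290 lay 4033 bp upstream. The PDZ and LIM domain gene Zasp52 (FBgn0265991, 2R:15762565-15817004) had an intronic peak of 216 and 4 peaks of 163 to 269 outside the gene.

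Members without a promoter peak were also looked up in the relaxed pooled list, which holds background as well as peaks. In that list 24 of 32 members (75.0%) had a summit at a promoter, 9 regulators and 15 contractile and attachment genes, against 49.4% of all protein-coding genes. These shares were not split by number of TSSs. The median number was 2.00 for members and 2.50 for contractile and attachment genes, against 1.00 for all protein-coding genes. Of the 9 regulators without an IDR promoter peak, 4 had a relaxed one, with signals of 62.7 at Mef2, 54.2 at pyr, 51.0 at sna and 49.4 at ths. Of the 12 contractile and attachment genes, 9 had one, with signals from 39.0 at Tm2 to 66.4 at Act57B, among them 59.9 at Mhc and 61.0 at bt. Every one of these lay below the lowest IDR signal of 133. This was fixed in advance, since the 5786 IDR peaks were the 5786 highest peaks of the pooled list. No relaxed promoter summit was found at twi, bap, lmd, nau, slou, up, Prm or Zasp52.

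The replicates supported the members' peaks about as often as all IDR peaks. Each replicate list was reduced to its 5786 highest peaks, and 48 of the 65 summits (73.8%) lay in a peak of all 3, against 72.6% of all IDR peaks. Of the others, 12 lay in 2 reduced lists, 4 in 1 and 1 in none. Over their whole length the 3 lists each held a peak that overlapped every one of the 65. No share over all IDR peaks was set beside this overlap, and the full lists hold background as well as peaks. Of the 13 promoter peaks, 9 were covered in all 3 reduced lists. Those of how and mys and both at stumps were not. At stumps the narrow peak of replicate 1 lay beside the summit, 60 bp away, and still ranked 310.

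**Figure D5:**
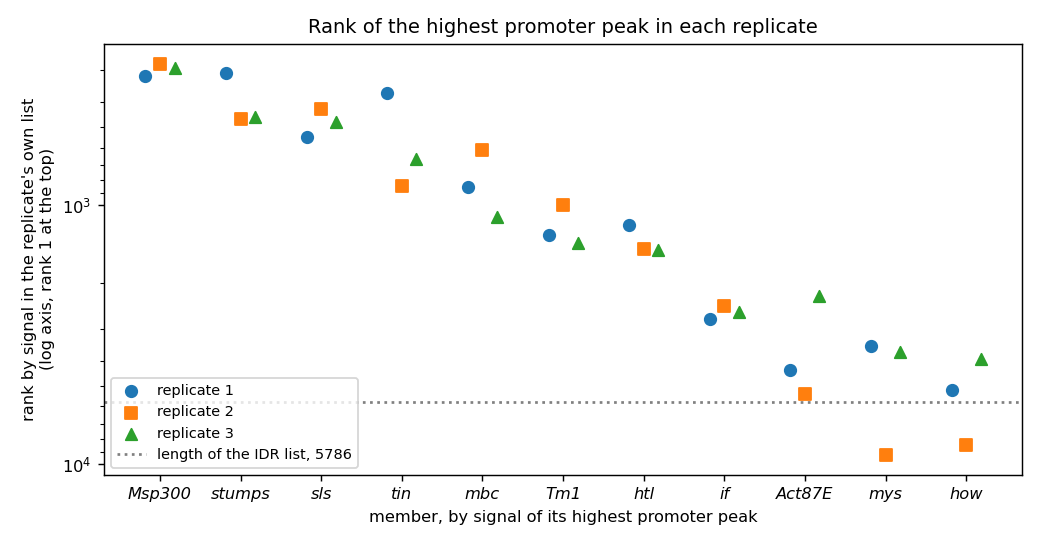
Rank of the highest promoter peak of the 11 members in each replicate's own list (vertical log axis, rank 1 at the top), with members ordered by signal (horizontal axis). The dotted line is the length of the IDR list, 5786, and the replicate 2 points of mys (9256) and how (8438) are the only ones beyond it.

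Some of the peaks could belong to a neighbour by position. Of the 65 summits, 18 had a TSS of another gene within 500 bp, and 15 of these were among the 33 peaks outside the members. No share over all IDR summits was set beside these counts. Of the 13 promoter peaks, 2 had such a TSS, those of mbc and mys. Leaving out the peaks at other genes' TSSs that were at no member's TSS left 49 peaks, with 11 of 14 regulators and 10 of 18 contractile and attachment genes still within 10 kb of a peak. At 6 places 2 peaks overlapped with summits 202 to 206 bp apart, and merging them left 59 sites. Such overlaps made up 5.53% of all IDR peaks.

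Each motif was searched on both strands within 100 bp of the members' summits, and its share of the 65 windows was set beside that of 5786 IDR windows and 19253 promoter windows of the same length. Most motifs were in few member windows. The Twist E-box CATATG was in 10.8% of member windows, 7.09% of IDR windows and 4.06% of promoter windows, and the other Twist E-box, CACATG, in 1.54%, 6.57% and 6.26%. The Mef2 site was in 10.8%, 13.2% and 5.97%, the Snail site CAGGTG in 4.62%, 4.65% and 6.67%, and the Tinman site TCAAGTG in 1.54%, 3.56% and 3.30%. Member windows with the Mef2 site were those at Act87E, Act57B, pyr, lmd, mbc (the peak at tst) and both peaks of Msp300.

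Of the general promoter motifs, GAGAG was in 13 of the 65 member windows, 20.9% of IDR windows and 25.0% of promoter windows, and the TATA box TATAAA in 36.9%, 38.4% and 26.9%. CATCNCTA was in 6.15%, 4.23% and 4.46%, and the CTCF core AGNNGGCGC in 7.69%, 3.25% and 1.92%, which is 5 member windows, at Mef2, nau, Act57B, Prm and Zasp52. The DREF site TATCGATA and Motif 1 were in 0 of 65 member windows, against 3.23% and 1.00% of IDR windows and 6.45% and 3.25% of promoter windows. The median GC content was 34.3% in member windows (20.9 to 48.3%), 33.8% in IDR windows and 42.3% in promoter windows. Member summits thus had the base composition of IDR summits as a whole and were poorer in G and C than promoters.

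The word TACACTG was searched because it stood out at IDR summits in these data. At the 5721 IDR summits at no member it was in 8.01% of windows, against 1.54% of windows 600 bp to either side. Since the word was chosen at IDR summits of these data, its excess there follows from that choice. TACACTG was in 9 of the 65 member windows (13.8%), at twi, Mef2, nau, if, Tm1, Mlc2, the mbc promoter and 2 ths peaks, against 1.73% of promoter windows. These 9 peaks had no single place in common, being at promoters, in introns and outside the genes.

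Related genes outside the 32 were read in the same way, with the 22.6%, 13.0% and 67.8% of all genes as the background. Of 25 other mesoderm and muscle regulators, 3 had a promoter peak, chn (1260), org-1 (857) and Poxm (653), while 3 had a peak inside and 17 a peak within 10 kb. Of 15 other myoblast fusion genes, 5 (33.3%) had a promoter peak, the highest at Hem (874), rols (301) and Vrp1 (226), while 5 had a peak inside and 14 a peak within 10 kb. The gene kirre, a receptor of founder myoblasts, held 23 peaks in its 394149 bp. Of 33 other contractile and attachment genes, 6 (18.2%) had a promoter peak, the highest at scb (742), tmod (429) and Actn (170), while 8 had a peak inside and 23 a peak within 10 kb. The share of regulators with a peak inside, 9 of 14 among the members, was 3 of 25 among these other regulators. Outside the members the order of the classes was reversed. A peak lay inside 3 of 25 other regulators and 8 of 33 other contractile and attachment genes. The related lists were not split by span, so these shares do not take gene length into account.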

How the data were processed

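ChIP-seq peaks of az2-GFP were taken from 5 deposited dm6 lists, called by the authors against a control alignment: 3 relaxed lists of single replicates, 1 of the pooled reads and 1 kept by IDR. The peak caller and the IDR threshold are not given in the sources used here. The 5 dm3 lists were not used. The signal of a peak is the value in column 7 of the deposited lists, which is the authors' own and of no stated unit. The deposited column 10 is another kind of value, the summit's offset in bp from the peak's start. Fragments were 200 to 800 bp long per the labels. The lists hold no read counts, so depth is unknown and no interval was computed.

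Genes, TSSs and spans came from Ensembl release 115 (BDGP6.54) on 6 chromosome arms, with Python 3.11.15, pandas 2.3.3, numpy 2.4.6 and matplotlib 3.10.9. Coordinates start at 1. A replicate's value for a peak is that of its overlapping peak with the nearest summit. Motifs were searched in 201 bp on both strands. The ZIPIC core was not searched here. One listed gene, Unc-89, was matched by its synonym to Obsc. The counting was tested on simulated data with planted summits. The members, the gene lists and the split into regulators and contractile and attachment genes were chosen with earlier results of these data known. Every member was named, with the 3 highest of each related list. The 19 alternatives covered windows, TSSs, lists, signal, replicates left out and class membership.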

Additional observations from a re-analysis of the deposited data

How the results depend on the processing

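Of 136 counts and densities recomputed under 19 alternatives, 122 stayed within 1.5 times their main value and 14 moved beyond it. With a 250 bp window 5 members had a promoter peak (3 regulators and 2 contractile and attachment genes), and with the 5'-most TSS alone 6 did (3 and 3), since the peaks of stumps, htl, if, Tm1 and Msp300 lie at internal TSSs. Regulators with a promoter peak numbered 3 when peaks had to be covered in all 3 reduced lists, and 3 to 4 when each replicate was left out in turn, the lowest without replicate 3. With the higher 2893 IDR peaks the density was 0.365 per 10 kb for regulators and 0.138 for contractile and attachment genes. The density over all genes was not given for that shorter list. With 20 kb to either side 17 contractile and attachment genes had a peak, and the members had 103 peaks. No share over all protein-coding genes was set beside the 250 bp and 20 kb counts, so they cannot be placed against a background. The same holds for the counts from reduced lists and with a replicate left out. Of the contractile genes alone, 3 had a promoter peak and 1 a peak inside the gene, with a density of 0.0854 per 10 kb. Densities were not recomputed under every alternative. Where they were, the regulators' density stayed above that of the contractile and attachment genes. Merging overlapping peaks, leaving out peaks at other genes' TSSs and shortening twi were chosen after seeing the data. Peaks of 1 group of embryos allow no contrast between conditions, and antibody background was not analysed here.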
